A study of Mus musculus with 26 samples.

Results

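The comparison described here set microglia labelled as Tmem106b knockout against wild-type microglia, in mice whose Grn gene was intact. Its libraries were chosen by the genotype label: 4 libraries were labelled TMEM KO GRN WT and 3 were labelled TMEM WT GRN WT, 7 of the 26 libraries of the series. They are called KO and WT below, and all genes that passed a filter on low counts, 21371 in all, were compared between them. Both groups carried the wild-type Grn genotype. KO replicate 1 came from a female and KO replicates 2, 3 and 4 from males, and WT replicate 2 came from a female and WT replicates 1 and 3 from males. The dissection label read Hemi for KO replicate 2 and WT replicate 2 and Entire for the other 5 libraries, with no further explanation. The cell type was labelled microglia, poly(A) RNA was measured, and the libraries were made with a low-input full-length amplification kit. The design of the knockout allele, the age and strain of the mice, the way the cells were isolated, and whether each library came from a separate animal are not stated in the sources used, so a p-value here reflects library-to-library spread, which may in part be technical. The series as a whole asks how lowering Tmem106b bears on microglia with too little progranulin. This comparison sets libraries labelled Tmem106b KO against WT where Grn is intact.

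Tmem106b encodes a single-pass membrane glycoprotein of late endosomes and lysosomes, where it takes part in the acidification and the movement of these organelles. Variants of the human gene modify the risk of frontotemporal dementia in carriers of mutations in GRN, the gene of progranulin, a secreted protein that is delivered to lysosomes. Microglia are the resident macrophages of the brain and clear debris through their lysosomes. In ageing and disease they lower a set of homeostatic genes and turn on a set known from disease-associated microglia, which includes Apoe, Gpnmb, Lgals3 and Spp1.

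The 7 libraries held 37.6 to 43.7 M counted reads. Microglia markers were high in 6 of them. Their summed level, in CPM (counts scaled to the same library total) over 10 genes such as Tmem119, P2ry12 and Cx3cr1, was 49960, 39240 and 49830 in KO replicates 1, 3 and 4 and 51190, 42150 and 53120 in WT. KO replicate 2 stood apart, with a microglia sum of 9223 and a neuron sum of 8051, against neuron sums of 264 to 1153 in the other KO libraries. Its 10 most abundant genes took 4.0% of its counts, against 11.0% to 17.1% in the other 6 libraries. Each result is therefore given with and without KO replicate 2 where that library bears on it. In bulk RNA, fewer cells of a type and less RNA per cell cannot be told apart.

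**Figure D1:**
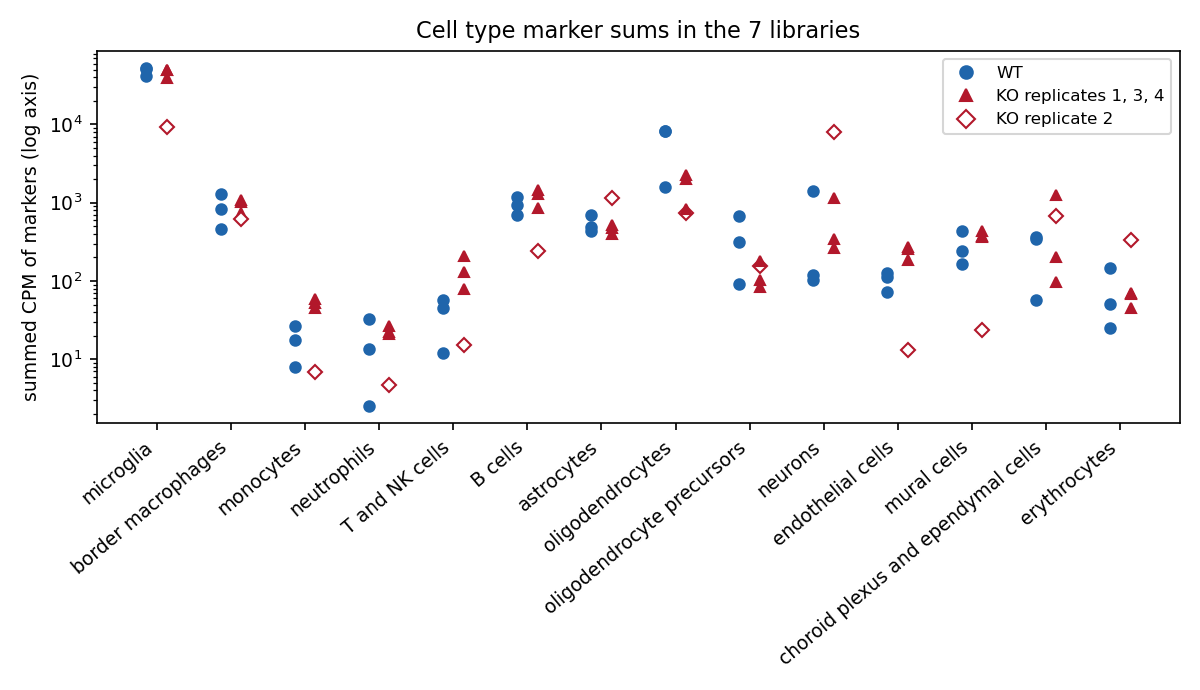
Summed CPM of 14 lists of cell type markers (x axis) in each of the 7 libraries, on a log axis. Circles are WT, filled triangles are KO replicates 1, 3 and 4, and open diamonds are KO replicate 2, which had the lowest microglia sum (9223) and the highest neuron sum (8051).

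Tmem106b was the target and the check of the labels. Its transcript was at 24.0, 26.7, 26.4 and 35.7 CPM (scaled by TMM) in the 4 KO libraries and at 88.6, 68.7 and 75.5 CPM in the 3 WT libraries. The groups did not overlap, and KO replicate 2 lay among the other KO libraries. The KO mean, 28.2 ± 5.13 CPM (SD, n = 4), was 36.3% of the WT mean, 77.6 ± 10.1 CPM (SD, n = 3). On the log2 scale Tmem106b fell by 1.49 (SE 0.219, edgeR adjusted p = 0.0275), and an exact two-sided permutation test over the 7 libraries gave p = 0.0286, the smallest that 35 splits allow. Per gene length, the deposited RPKM values were 4.29 ± 0.881 in KO and 10.6 ± 0.882 in WT. Reads thus remained at the gene in every KO library, and since the allele is not described, they cannot be placed inside or outside a deleted stretch. In mice with 1 Tmem106b copy and intact Grn (TMEM HET GRN WT), the level was 71.8, 46.4, 83.4 and 39.1 CPM, all above the KO libraries. The KO minus HET difference was −1.19 (SE 0.213, adjusted p = 0.0941), with an adjusted p of 0.0201 without KO replicate 4.

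The call of Tmem106b was lost in 6 of the 7 fits that each left out 1 library. Without KO replicate 1, 2 or 3 the adjusted p was 0.148, 0.202 or 0.216, and without WT replicate 1, 2 or 3 it was 0.149, 0.387 or 0.0603. Without KO replicate 4 it was 0.0335. The log2 difference was between −1.57 and −1.44 in these 7 fits.

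**Figure D2:**
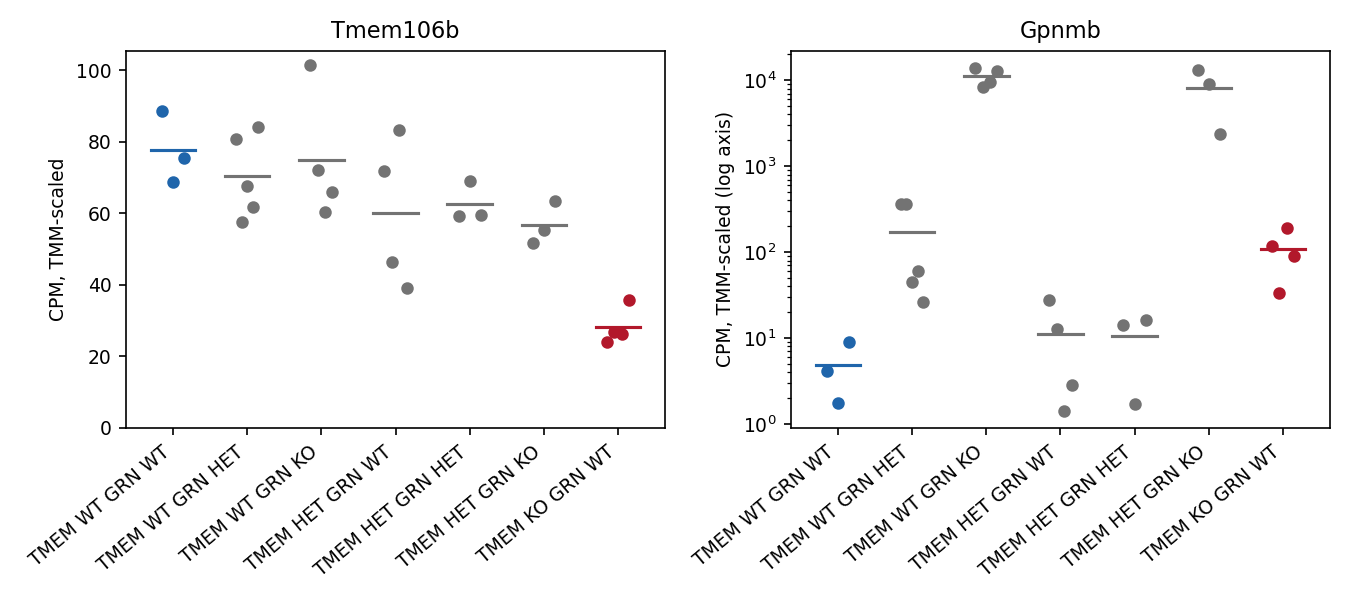
TMM-scaled CPM of Tmem106b (left, linear axis) and Gpnmb (right, log axis) in each library of the 7 genotype groups, with a bar at the group mean. KO libraries (red) sit at 24.0 to 35.7 CPM for Tmem106b, below every WT library (blue), and at 33.6 to 190 CPM for Gpnmb, above every WT library and far below the Grn KO libraries.

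Tmem106b lies on the plus strand of chromosome 6 at 13069759 to 13089269 (GRCm38). Its relatives Tmem106a and Tmem106c did not pass the test. Tmem106a was at 126, 26.8, 92.7 and 91.8 CPM in KO and 97.0, 55.8 and 91.2 CPM in WT (log2 difference −0.14, adjusted p = 0.885). Tmem106c was at 47.5, 58.4, 63.9 and 66.0 CPM in KO and 58.4, 54.7 and 62.6 CPM in WT (log2 difference −0.01, adjusted p = 0.989). Both sets of values overlapped between the genotypes. Of the 7 protein-coding neighbours within 1 Mb, 6 were expressed enough to test (Phf14, Thsd7a, Tmem168, Bmt2, Gpr85 and 2610001J05Rik), and none passed by edgeR, DESeq2 or limma-voom or had an unadjusted p under 0.05. Bmt2 had the smallest adjusted p, 0.491, with 26.9 to 36.9 CPM in KO and 34.2 to 47.4 CPM in WT.

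Grn did not pass either (log2 difference −0.34, SE 1.15, adjusted p = 0.939). It was at 4470, 554, 2215 and 3347 CPM in KO and at 3897, 2299 and 3838 CPM in WT. The low value belonged to KO replicate 2, the library with the low microglia sum, and without it the difference was 0.06. Grn is highly expressed in microglia, and the part of that library's cell makeup in its low value was not tested.

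Across the transcriptome, Tmem106b was the only gene of 21371 that passed at an adjusted p under 0.05, which is 0.00468% of the genes tested. No gene was called higher. At an unadjusted p under 0.05, 1322 genes (6.19%) were higher and 1027 (4.81%) lower in KO, and without KO replicate 2 these counts were 702 (3.31%) and 447 (2.11%). All 4 KO libraries lay above all 3 WT libraries for 539 genes (2.52%) and below them for 443 genes (2.07%). The median log2 difference over all genes was 0.07. By limma-voom no gene passed. DESeq2 called 476 genes higher and 102 lower. Of these calls, 57.1% were under 5 CPM in both groups, against 45.1% of the genes tested, and 255 had no count in 1 of the groups. Without KO replicate 4 edgeR called 3 genes, all lower: Tmem106b, Fam102b (−1.60, adjusted p = 0.0450) and Zfp746 (−1.17, adjusted p = 0.0450), named here after their values were seen.

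**Figure D3:**
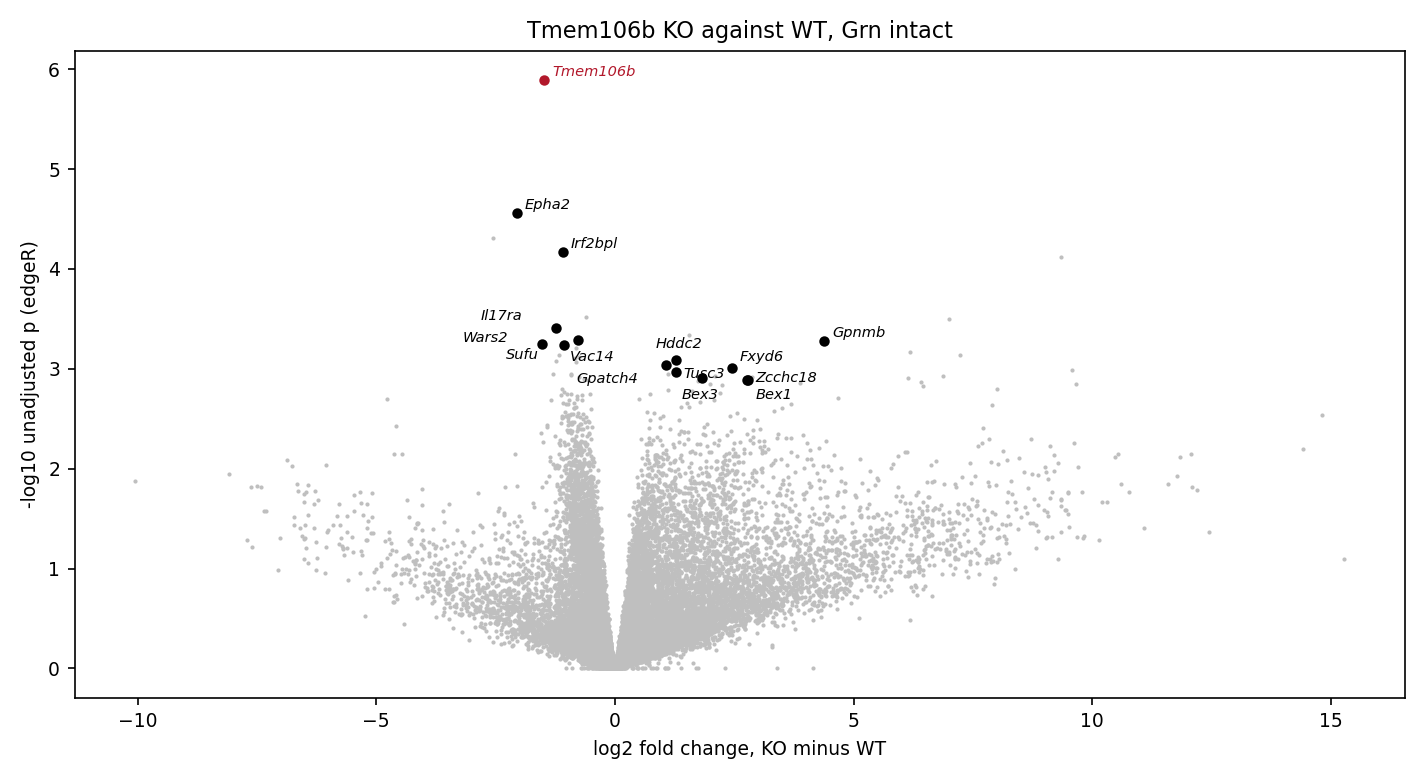
Log2 difference KO minus WT (x axis) against the negative log10 of the unadjusted edgeR p (y axis) for all 21371 genes tested, with the leading genes named. Tmem106b (red) is the gene past an adjusted p of 0.05, and Epha2 and Gpnmb are the outermost named genes on the lower and higher side.

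The genes of smallest p below Tmem106b are given as values, since none passed. Epha2, a receptor tyrosine kinase for membrane-bound ephrin-A ligands, was at 13.2, 5.32, 8.67 and 7.72 CPM in KO and at 32.1, 34.0 and 37.4 CPM in WT. Every KO library was below every WT library, and the KO mean was 25.3% of the WT mean. Its log2 difference was −2.06 (SE 0.381, adjusted p = 0.297), and −1.94 without KO replicate 2. Over the 21 alternative analyses it ranged from −2.29 to −1.62, past the threshold by DESeq2 only. Epha2 was also low in Grn KO microglia with intact Tmem106b, at 10.3 to 14.4 CPM (KO minus Grn KO −0.49, SE 0.361). In TMEM HET GRN WT mice it was at 10.75 to 31.9 CPM (KO minus HET −1.28, SE 0.364, edgeR adjusted p = 0.103). Irf2bpl, a nuclear protein related to a partner of interferon regulatory factor 2, was at 46.9, 61.9, 68.2 and 81.1 CPM in KO and at 123, 140 and 147 CPM in WT. These groups did not overlap (log2 difference −1.09, SE 0.218, adjusted p = 0.321). In the other genotype groups Irf2bpl had means of 62.0 to 91.1 CPM, with no library above 114.6 CPM. Its level in KO was thus not particular to KO, and the WT libraries were the highest of the series. The KO minus Grn KO difference was 0.004 (SE 0.218).

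The other leading lower genes described here had adjusted p values of 0.434 each. Il17ra, the receptor subunit for interleukin 17, was at 255, 58.9, 273 and 307 CPM in KO and 562, 373 and 448 CPM in WT. Sufu, an inhibitor of Hedgehog signalling, was at 27.6, 19.3, 20.5 and 47.6 CPM in KO and 62.9, 57.4 and 53.3 CPM in WT. Wars2, the mitochondrial tryptophan tRNA ligase, was at 8.17, 1.38, 4.85 and 4.51 CPM in KO and 11.4, 9.78 and 17.0 CPM in WT. In these 3 genes all KO libraries were below all WT libraries, and the log2 differences were −1.24, −1.06 and −1.53. Il17ra and Sufu were near the KO level in Grn KO, at 211 to 251 and 21.5 to 31.0 CPM. Their KO minus Grn KO differences were −0.17 (SE 0.286) and 0.17 (SE 0.252). Wars2 was at 7.95 to 12.6 CPM in Grn KO (KO minus Grn KO −0.95, SE 0.362, edgeR adjusted p = 0.560). Vac14, a scaffold of the kinase complex that makes the endolysosomal lipid PI(3,5)P2, overlapped between the genotypes (44.4 to 98.4 CPM in KO, 95.6 to 139 CPM in WT, log2 difference −0.76). In Grn KO it was at 95.3 to 121.7 CPM (KO minus Grn KO −0.66, SE 0.180, edgeR adjusted p = 0.187).

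Among genes with higher values, Gpnmb had the smallest p. It encodes a transmembrane glycoprotein of macrophages that is known to be turned on when their lysosomes are under stress. It was at 118, 33.6, 190 and 89.2 CPM in KO and at 4.14, 1.75 and 8.90 CPM in WT. Every KO library was above every WT library, KO replicate 2 included, although that library was the lowest of the 4. The log2 difference was 4.37 (SE 1.06, adjusted p = 0.434), and the KO mean, 108 ± 65.2 CPM (SD, n = 4), was 21.9 times the WT mean, 4.93 ± 3.64 CPM (SD, n = 3). The exact two-sided permutation p was 0.0571. Over the 21 alternatives the difference ranged from 3.96 to 5.002 and passed by DESeq2 only.

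Hddc2, which encodes an HD-domain enzyme, and Gpatch4, a nucleolar protein, were also higher in all 4 KO libraries. Hddc2 was at 12.4, 19.5, 18.4 and 10.3 CPM in KO and at 5.397, 7.004 and 6.27 CPM in WT (log2 difference 1.28, adjusted p = 0.434). Gpatch4 was at 16.2, 23.3, 14.5 and 17.9 CPM in KO and at 7.79, 8.69 and 8.90 CPM in WT (log2 difference 1.08, adjusted p = 0.434). Neither difference rested on KO replicate 2, without which they were 1.28 and 1.01. In TMEM HET GRN WT mice Gpatch4 was at 11.4 to 20.2 CPM, above every WT library (KO minus HET 0.38, SE 0.257, edgeR adjusted p = 0.438). Hddc2 was at 5.385 to 8.488 CPM there (KO minus HET 1.05, SE 0.302, adjusted p = 0.105). In Grn KO Hddc2 was at 9.11 to 12.4 CPM, also above every WT library (KO minus Grn KO 0.39, SE 0.302).

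The other 5 leading higher genes, Fxyd6, Tusc3, Bex3, Zcchc18 and Bex1, overlapped between the genotypes and had their highest value in KO replicate 2. Zcchc18 was at 1350 CPM there, at 56.5 to 206 CPM in the other KO libraries and at 18.9, 226 and 11.5 CPM in WT. Bex1, a brain-expressed X-linked gene, was at 139 CPM there, at 4.86 to 15.5 CPM in the other KO libraries and at 1.67, 24.2 and 0.722 CPM in WT. The high WT value of both genes was in WT replicate 2, which had the highest neuron sum of the WT libraries (1396, against 103 and 119). Both libraries were labelled Hemi. With the neuron sum as a covariate the log2 differences of Zcchc18, Bex1 and Fxyd6 were 0.73, 0.94 and 0.90, against 2.77, 2.78 and 2.45 without it. Those of Hddc2 and Gpatch4 were 0.91 and 0.84 with it, against 1.28 and 1.08. The part of neuronal RNA or of the dissection in these differences was not tested.

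**Figure D4:**
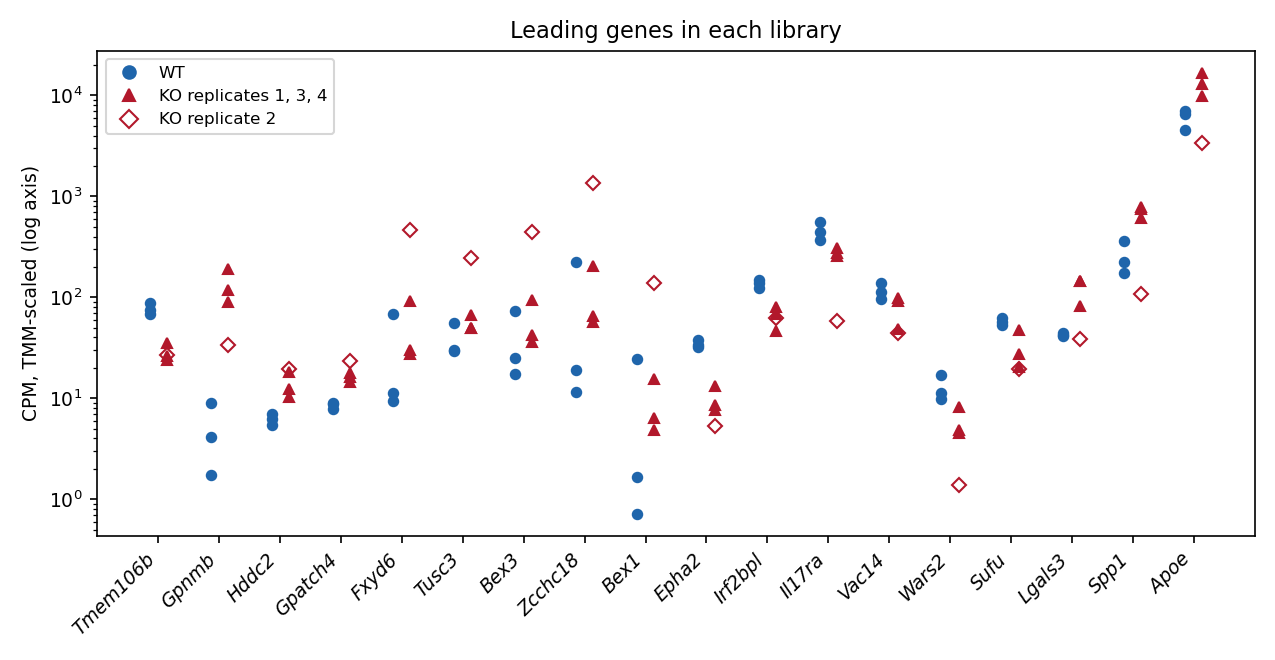
TMM-scaled CPM on a log axis for the leading lower and leading higher genes and for Lgals3, Spp1 and Apoe, in each library. Circles are WT, filled triangles KO replicates 1, 3 and 4, and open diamonds KO replicate 2. Gpnmb, Hddc2 and Gpatch4 are higher and Epha2 and Irf2bpl lower in every KO library.

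Of 31 genes known from disease-associated microglia, none passed after adjustment. At an unadjusted p under 0.05, 4 were higher (Gpnmb, Atp6v0d2, Lgals3 and Spp1), where 6.19% of all genes were, and none lower, with a median log2 difference of 0.05. Without KO replicate 2, 9 of 31 were higher at that threshold, where 3.31% of all genes were, none was lower, and the median was 0.34 against 0.06 over all genes. Within the libraries labelled Entire 11 were higher, against 4.22% of all genes, and the median was 0.27. DESeq2 called 2 members higher, against 476 of the 21371 genes tested, and limma-voom none. These counts describe the list, and its members were chosen with earlier results of these data known.

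Lgals3, galectin 3, a sugar-binding protein recruited to damaged lysosomes, was at 145, 38.3, 145 and 82.9 CPM in KO and at 44.1, 41.7 and 42.5 CPM in WT. The SD over the WT libraries was 1.23 CPM, and 3 of 4 KO libraries lay well above them while KO replicate 2 was below. The log2 difference was 1.15 (SE 0.396, adjusted p = 0.434), and 1.40 without KO replicate 2. Spp1, the secreted phosphoprotein osteopontin, had the same layout. It was at 793, 107, 753 and 616 CPM in KO and at 176, 358 and 224 CPM in WT (log2 difference 1.22, adjusted p = 0.434, and 1.64 without KO replicate 2). Apoe, the lipid carrier apolipoprotein E, was at 16750, 3400, 12940 and 9956 CPM in KO and at 7047, 4548 and 6561 CPM in WT (log2 difference 0.72, adjusted p = 0.528, and 1.01 without KO replicate 2).

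Of the 5 further members among the 9, Cst7, Lpl, Lyz2 and Clec7a are named after their values were seen. Cst7, the protease inhibitor cystatin F, was at 142, 17.8, 144 and 117 CPM in KO and at 27.4, 45.7 and 55.2 CPM in WT. Clec7a, the beta-glucan receptor dectin 1, was at 208, 12.1, 151 and 104 CPM in KO and at 50.7, 73.8 and 79.9 CPM in WT. For both genes KO replicates 1, 3 and 4 lay above all WT libraries and KO replicate 2 below them. Lpl, a lipase of lipoproteins, and Lyz2, lysozyme, overlapped with WT also among the other KO libraries. Other members had differences below 0, such as Trem2, a lipid-sensing receptor needed for this state (−0.40), and the protease gene Ctsd (−0.35), also chosen after their values were seen.

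Some genes had no count in any WT library, and 4 of them are given here. The share of such genes among all genes tested was not counted. Of the DESeq2 calls, 255 had no count in 1 of the groups. Mcoln3, a lysosomal calcium channel, was at 1.36, 0, 4.93 and 3.81 CPM in KO. Taking 3 counts summed over the 3 WT libraries as the floor (0.0249 CPM), the KO mean was at least 101-fold higher. Atp6v0d2, a subunit of the proton pump that acidifies lysosomes, was at 3.32, 0, 3.07 and 0.674 CPM in KO, at least 70.8-fold higher by the same floor. Mamdc2 and Apoc4 were likewise absent from WT and from KO replicate 2, with KO values up to 3.67 and 0.495 CPM. None of the 4 passed (adjusted p = 0.434 for each), and Mcoln3, Mamdc2 and Apoc4 were picked after their values were seen. Floors cover counting error only.

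Gpnmb, Lgals3 and Apoe lead the response to Grn loss in the same series, so KO was set directly against Grn KO microglia with intact Tmem106b (TMEM WT GRN KO, n = 4). In that contrast 4 genes (0.0187%) were higher and 72 (0.337%) lower in Tmem106b KO. These counts were 2 and 50 without KO replicate 1, 12 and 42 without KO replicate 2, 1 and 29 without KO replicate 3, and 1 and 24 without KO replicate 4. They were 52 and 121 within the Entire libraries, 4 and 108 with dissection and 4 and 23 with sex as the one covariate, 2 and 36 with no covariates, and 3 and 43 with the 3 marker sums. Limma-voom called 5 and 146 genes and DESeq2 74 and 308. Gpnmb was at 13930, 8314, 9669 and 12940 CPM in Grn KO, so the KO mean was 0.962% of the Grn KO mean (log2 difference −6.65, SE 1.06, adjusted p = 0.0080). Lgals3 was at 815, 647, 859 and 977 CPM in Grn KO, of which KO reached 12.5% (log2 difference −2.93, SE 0.389, adjusted p = 0.0028). Apoe was at 49500 to 83070 CPM in Grn KO, of which KO reached 16.2% (log2 difference −2.60, SE 0.424, adjusted p = 0.0080, and not called by DESeq2). Spp1 was not distinguished in the same contrast (log2 difference −1.26, SE 0.456, adjusted p = 0.483).

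Mice with 1 Grn copy and intact Tmem106b (TMEM WT GRN HET, n = 5) are set beside KO here without a test. Gpnmb was at 26.4 to 365 CPM there, with a median library at 60.6 CPM, and at 33.6 to 190 CPM in KO. Lgals3 was at 42.6 to 108 CPM and Mcoln3 at 2.14 to 4.53 CPM there. In TMEM HET GRN WT mice Gpnmb was at 28.1, 12.6, 1.43 and 2.86 CPM, which overlapped with WT and lay below every KO library. The KO minus TMEM HET GRN WT difference of Gpnmb was 3.48 (SE 0.938, adjusted p = 0.0953, and 0.0428 without KO replicate 4).

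From libraries that neither KO nor WT used, 12 genes higher and 12 lower were taken by comparing Grn KO with Grn WT in Tmem106b HET mice. In that choosing contrast the neuron marker Snap25 and Bex1 were higher too (log2 differences 3.50, adjusted p = 0.0098, and 3.98, adjusted p = 0.0029), and homeostatic genes were lower (Tmem119 −2.11, adjusted p = 0.0027, and Csf1r −1.96, adjusted p = 0.0035). The part of these cell type genes in the result below was not tested. In KO minus WT all 12 higher genes had log2 differences above 0, 6 of them at an unadjusted p under 0.05, where 6.19% of all genes were higher, with a median of 1.04. Without KO replicate 2, 4 of 12 were at that threshold against 3.31% of all genes, the median was 0.53, and Chst2 stood at −0.05 (0.22 with that library). All 12 lower genes had differences below 0, 9 at an unadjusted p under 0.05 against 4.81% of all genes, with a median of −0.75. These were 5 of 12 without KO replicate 2, against 2.11%, with a median of −0.44. In KO minus Grn KO, 8 of the 12 higher genes passed and were lower in Tmem106b KO. Gpnmb, Lgals3, Gpx3, Chst2 and Pld3 did so in all 19 alternatives run for that contrast, and Necab2, Fabp5 and Nceh1 lost the call in each fit without KO replicate 1, 3 or 4 and in some covariate settings. Of the 12 lower genes 1 passed, Upk1b (1.78 higher than in Grn KO, adjusted p = 0.0235), and it too lost the call without each of those libraries.

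Among them, Gpx3, a secreted glutathione peroxidase, was at 55.8, 196, 61.2 and 41.4 CPM in KO and at 42.2, 26.1 and 33.8 CPM in WT. Its log2 difference of 1.42 was 0.47 without KO replicate 2, which held the high value. Nceh1, a cholesterol ester hydrolase, was at 57.6, 123, 66.6 and 62.7 CPM in KO and at 47.8, 50.4 and 40.8 CPM in WT, with no overlap (log2 difference 0.71, adjusted p = 0.439). Eng, an accessory receptor for TGF-beta, was at 55.3, 8.30, 45.8 and 92.9 CPM in KO and at 130, 64.8 and 92.3 CPM in WT (log2 difference −1.17, adjusted p = 0.434).

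Homeostatic microglia genes had log2 differences below 0 in all 24 members when KO replicate 2 was kept. Of these, 9 were at an unadjusted p under 0.05, where 4.81% of all genes were lower, and the median was −0.65. Without KO replicate 2, 2 of 24 were at that threshold, against 2.11% of all genes, the median was −0.36, and Gpr84 stood at 0.06. Within the Entire libraries 6 of 24 were lower, against 2.92%, with a median of −0.31 and Gpr84 at 0.10. No member passed after adjustment, with edgeR, DESeq2 or limma-voom. Tmem119, a microglia surface marker, was at 5863, 807, 4250 and 5887 CPM in KO and at 7140, 5265 and 6887 CPM in WT (log2 difference −0.86, adjusted p = 0.434). Csf1r, the growth factor receptor on which microglia depend, was at 11650, 2086, 8018 and 14540 CPM in KO and at 17810, 11210 and 13470 CPM in WT (log2 difference −0.86). In both genes KO replicate 2 was far below the others, and the remaining KO libraries overlapped with WT. The members below the threshold without it included Rhob, a small GTPase of endosomes (−0.61).

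The lysosome was examined through 4 lists, given the place of TMEM106B there. Of 56 lysosomal enzymes and membrane proteins, none passed, 8 were lower and none higher at an unadjusted p under 0.05, where 4.81% of all genes were lower, and the median log2 difference was −0.37. Without KO replicate 2 neither direction had a member at that threshold and the median was −0.18. Idua, which degrades glycosaminoglycans, was at 111, 26.1, 116 and 116 CPM in KO and at 145, 119 and 146 CPM in WT, below WT in all 4 libraries (log2 difference −0.79, and −0.49 without KO replicate 2). Arsb, the sulfatase in the same pathway, had a log2 difference of −0.64 and overlapped between genotypes.

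The vacuolar ATPase pumps protons into lysosomes, and of its 21 subunits 4 were higher and 2 lower at an unadjusted p under 0.05 (median 0.30), where 6.19% and 4.81% of all genes were. The counts were 2 and 0 without KO replicate 2 (median 0.19), against 3.31% and 2.11%. Besides Atp6v0d2, the higher ones included Atp6v1g2, a neuron-enriched subunit, at 45.5, 678, 136 and 31.3 CPM in KO and at 11.2, 155 and 25.1 CPM in WT, and Atp6v1h (log2 difference 0.57). Atp6v1g2 and Atp6v1h both had their top value in KO replicate 2. Tcirg1, a membrane subunit of the pump, had a log2 difference of −0.71 (94.3 to 446 CPM in KO, 414 to 557 CPM in WT). DESeq2 called 2 subunits higher, against 476 of the 21371 genes tested.

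Of 29 genes for lysosome positioning and known TMEM106B partners, 2 were lower and none higher at an unadjusted p under 0.05, also without KO replicate 2 (medians −0.13 and −0.08). This was near the share of all genes, 4.81% and 2.11%. Plekhm1, an adaptor that tethers lysosomes for fusion, was at 22.6, 16.2, 28.8 and 41.4 CPM in KO and at 57.1, 43.7 and 55.1 CPM in WT, with no overlap. Its log2 difference was −1.01 (SE 0.289, adjusted p = 0.434), and −0.94 without KO replicate 2. Rab7, the GTPase of late endosomes, was at 170, 170, 161 and 186 CPM in KO and at 232, 185 and 234 CPM in WT (log2 difference −0.35, adjusted p = 0.434), and KO replicate 4 lay just above the lowest WT library. DESeq2 called 1 member of the list lower, against 102 of the 21371 genes tested.

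Autophagy genes and the TFEB family of lysosomal transcription factors gave 4 higher and 6 lower members of 32 at an unadjusted p under 0.05 (median −0.12), against 6.19% and 4.81% of all genes. Leaving out KO replicate 2 gave 0 and 2 (median −0.08), against 3.31% and 2.11%. Those 2 were Flcn and Tfe3. Flcn, folliculin, which holds TFEB and TFE3 in the cytoplasm, was at 248, 131, 197 and 248 CPM in KO and at 325, 258 and 302 CPM in WT, below WT in every library (log2 difference −0.56, SE 0.149, adjusted p = 0.434). Tfe3 was at 173, 45.9, 211 and 234 CPM in KO and at 272, 232 and 269 CPM in WT (log2 difference −0.80, and −0.49 without KO replicate 2).

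Genes of progranulin uptake and signalling, 13 in all, had a median log2 difference of −0.45, or −0.24 without KO replicate 2, and 3 were lower at an unadjusted p under 0.05, against 4.81% of all genes. None was lower at that threshold without KO replicate 2. Sort1, sortilin, the receptor that carries progranulin to lysosomes, was at 120, 95.2, 128 and 300 CPM in KO and at 396, 243 and 209 CPM in WT (log2 difference −0.85, adjusted p = 0.434). KO replicate 4 lay within the WT range. Mmp12, a macrophage protease that cleaves progranulin, was the member with all KO libraries above WT, at 71.8, 34.6, 27.6 and 45.9 CPM against 16.6, 10.9 and 23.1 CPM (log2 difference 1.34, adjusted p = 0.453).

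Immune genes were examined through 4 lists. None of 34 interferon response genes and none of 31 inflammatory genes reached an unadjusted p under 0.05 in either direction, and their medians were −0.19 and −0.28. These medians lay on the other side of 0 without KO replicate 2, at 0.15 and 0.10. Without that library 1 inflammatory gene was higher at the same threshold, against 3.31% of all genes, and no interferon response gene was. Of 23 antigen presentation genes 1 was lower at an unadjusted p under 0.05 (Cd80, a costimulatory ligand, −1.002), where 4.81% of all genes were. Cd80 was at 2.46 CPM in KO replicate 2 and at 9.62 to 17.8 CPM in the other KO libraries. Without KO replicate 2 none of the list was lower, against 2.11% of all genes, and 1 was higher, against 3.31%. The list median was −0.16 with that library and 0.20 without it. Of 21 complement genes 4 were lower, against 4.81% of all genes, and 1 was higher, against 6.19%, with a median of −0.42. When KO replicate 2 was left out, 2 were lower, against 2.11%, and 1 higher, against 3.31%, with a median of −0.06. C3, the central complement component, was the higher one, at 15.2, 4.16, 15.4 and 19.7 CPM in KO and at 3.29, 5.19 and 0.462 CPM in WT (log2 difference 2.28, adjusted p = 0.434). Itgam, the CD11b chain of the complement receptor, was at 291, 49.4, 247 and 429 CPM in KO and at 531, 341 and 489 CPM in WT (log2 difference −1.03, and −0.66 without KO replicate 2).

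Energy and lipid metabolism came next. Of 34 oxidative phosphorylation genes 15 were higher and none lower at an unadjusted p under 0.05, with a median of 0.50, where 6.19% of all genes were higher. Without KO replicate 2, 3 were higher, Ndufv2, Ndufb5 and Atp5o, against 3.31% of all genes, and the median was 0.36. Neuron markers were higher in the same libraries, and their part in these medians was not tested. With the neuron sum, or the neuron, oligodendrocyte and choroid plexus sums, as covariates and KO replicate 2 kept, the median was 0.24 or 0.17. Ndufv2, a subunit of respiratory complex I, was at 78.3, 262, 109 and 57.8 CPM in KO and at 48.7, 82.8 and 55.7 CPM in WT (log2 difference 0.95, adjusted p = 0.434). Of 25 cholesterol synthesis genes 3 were higher (median 0.44), and none without KO replicate 2 (median −0.02). Of 26 genes of lipid efflux and storage 3 were higher and 2 lower (median −0.18), and 3 and 0 without KO replicate 2. Of 30 cell cycle genes 1 was higher (median 0.17), and 2 without KO replicate 2. The cell cycle member over the 7 libraries was Ccnd2, cyclin D2, at 33.4, 13.6, 32.2 and 34.1 CPM in KO and at 16.7, 7.88 and 15.1 CPM in WT (log2 difference 1.09, adjusted p = 0.453). Of 29 genes of dissociation and immediate early response 1 was higher (Nr4a2, 1.77) and 3 lower (Jun, Jund and Zfp36, −0.58 to −0.70), and without KO replicate 2, 1 was higher and none lower. The counts of these lists too are at an unadjusted p under 0.05. Over all genes 6.19% were higher and 4.81% lower at that threshold, and 3.31% and 2.11% without KO replicate 2.

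**Figure D5:**
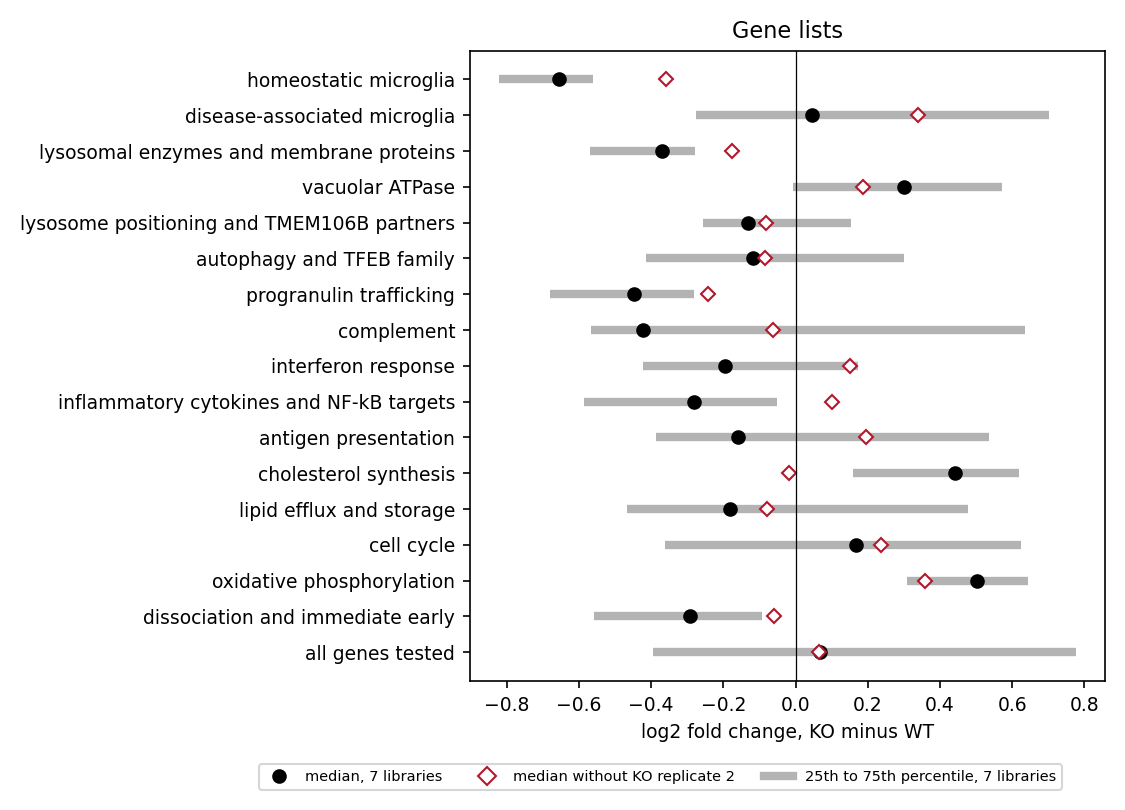
Log2 difference KO minus WT of 16 pathway lists and of all genes tested. Black points are medians over the 7 libraries with grey bars from the 25th to the 75th percentile, and open red diamonds are medians without KO replicate 2. Homeostatic genes sit lowest (−0.65 and −0.36), and the disease-associated list moves from 0.05 to 0.34 when that library is left out.

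Markers of other brain cells also differed between the libraries. The neuron sum was 264, 8051, 1153 and 342 CPM in KO and 103, 1396 and 119 CPM in WT. Within the 5 Entire libraries every KO value was above both WT values. Of 12 neuron markers 9 were higher at an unadjusted p under 0.05, against 6.19% of all genes, and 4 without KO replicate 2 (Stmn2, Gad1, Gad2 and Snap25), against 3.31%. The oligodendrocyte sum was 1997, 732, 843 and 2262 CPM in KO and 8135, 8243 and 1589 CPM in WT. All 12 of its markers had log2 differences below 0, with a median of −2.06 or −1.74 without KO replicate 2. Mbp, myelin basic protein, was at 483, 137, 257 and 442 CPM in KO and at 1841, 1994 and 388 CPM in WT. Sox10, the transcription factor of that lineage, was at 3.07 to 6.14 CPM in KO and at 54.5, 55.9 and 9.88 CPM in WT, with no overlap, and is named after its values were seen. It was listed among 10 oligodendrocyte precursor markers, of which 4 had log2 differences below 0 and 6 above 0. The median over that list was 0.06, or 0.30 without KO replicate 2.

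The marker sums of 14 cell types were compared between KO and WT by an exact two-sided permutation test, whose 35 splits allow a p of 0.0286 at the least. After adjustment over the 14 lists, a lone list at that p would stand at 0.40, so the test says nothing on whether the sums differed. The smallest raw p was 0.0857 for oligodendrocytes (adjusted p = 0.70). T and NK cell markers summed to 131, 15.2, 212 and 79.7 CPM in KO and to 58.1, 11.95 and 45.6 CPM in WT. Choroid plexus and ependymal markers summed to 204, 668, 96.5 and 1263 CPM in KO and to 368, 342 and 56.8 CPM in WT. The neutrophil markers Ly6g, Camp and Ngp and the erythrocyte marker Slc4a1 had no count in the 7 libraries. Most results were also fitted with the neuron sum as a covariate, and with the neuron, oligodendrocyte and choroid plexus sums together. The Tmem106b difference was −1.39 and −1.33 in these fits, neither past the threshold (adjusted p = 0.651 and 0.761). Gpnmb was at 4.46 and 4.61, Epha2 at −1.83 and −1.62, Lgals3 at 1.33 and 1.29, Spp1 at 1.42 and 1.40 and Apoe at 1.02 and 0.96, none past the threshold. The list medians were 0.20 and 0.27 for disease-associated genes, −0.43 and −0.39 for homeostatic genes, −0.20 and −0.19 for lysosomal genes and 0.24 and 0.17 for oxidative phosphorylation.

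The same KO libraries were also set against TMEM HET GRN WT (n = 4), which asks what losing the second copy adds. EdgeR called no gene in either direction, with 4002 genes at an unadjusted p under 0.05 and a smallest adjusted p of 0.0941. These were 2166 genes and 0.399 without KO replicate 2, 985 genes and 0.998 with the neuron sum as a covariate, and 1067 genes and 0.955 with the 3 marker sums. Limma-voom called none and DESeq2 1463 higher and 505 lower. Without KO replicate 4 edgeR called 602 genes higher and 526 lower, and without any of the other KO libraries none. The median over disease-associated genes was 0.15 in this contrast and 0.56 without KO replicate 2, and over homeostatic genes −0.69 and −0.32. With WT as the control the medians were 0.05 and 0.34, and −0.65 and −0.36. Since both contrasts use the same KO libraries, they are not independent.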

How the data were processed

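RNA from mouse microglia was sequenced in 26 libraries of 7 genotype groups, and groups were taken from the genotype label. Each deposited file lists, per the file headers, an exonic count and an RPKM value for every Ensembl gene. The submitters' processing notes name GSNAP as the aligner and GRCm38 as the build. Counting tool, annotation, strand handling and read filters are not given in the sources used here, so overlapping genes and close paralogs may share reads. RPKM values, which the authors scaled by gene length, were used in no test. Of 52636 genes, 52403 matched the GENCODE annotation of GRCm38 by identifier, which gave symbols and coordinates. Total counts of the 7 libraries compared were 37.6 to 43.7 M. No molecular identifiers were used, so counts are reads.

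Genes were kept with edgeR's expression filter on the 7 groups. The main test was edgeR 4.0.16 (R 4.3.3): TMM scaling, robust quasi-likelihood fit over all 26 libraries with sex and dissection as covariates, two-sided F-test, Benjamini-Hochberg adjustment over 21371 genes, threshold 0.05. The self-test on simulated counts with known fold changes was run first. It recovered 18% of 2-fold, 52% of 4-fold, 88% of 8-fold and 90% of 16-fold changes, with 2 false calls. Most 2-fold changes were thus missed. The changed genes had a mean of at least 5 CPM, while 45.1% of the genes tested were under 5 CPM in both groups. Apart from the changes, each gene had the same expected level in every simulated library. No simulated library therefore had the makeup of KO replicate 2, and recovery in the real comparison may differ. Alternatives, 21 in all, covered scaling, DESeq2 1.42.0, limma-voom 3.58.1, filters, covariates, the libraries in the fit, and each of the 7 libraries left out in turn. CPM of genes use the TMM-scaled total and marker sums the plain total. Single values were compared by exact permutation over 35 splits (SciPy 1.17.1).

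Named genes are Tmem106b, Grn, every gene that passed, and, where fewer than 8 passed in a direction, the genes of smallest p with a log2 difference of at least 0.5 and 5 CPM in the higher group, filled to 8, without Xist, genes on Y or predicted genes. Named as well are up to 4 members of each of 16 pathway lists by p, up to 3 of each of 14 marker lists by CPM, the relatives and the neighbours of Tmem106b within 1 Mb, and Lgals3, Gpnmb and Apoe. Others are said to be chosen after their values were seen. A few genes so chosen are not reported here. The members and lists were chosen with earlier results of these data known. The 12 higher and 12 lower genes of Grn loss are those of smallest p in TMEM HET GRN KO against TMEM HET GRN WT. Lists were described by counts and medians and not tested.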

Additional observations from a re-analysis of the deposited data

Results flagged for a closer look

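In 34 values of the KO group (the leading genes, the target genes and the marker sums), 8 had a library whose distance from the other 3 was large for a group of 4 by Dixon's criterion, which chance gives in about 1 of 20 groups. All 8 were KO replicate 2. The flagged genes were leading higher genes, picked by their p in a fit that used that library. Values of 1 library are also not independent, so the 8 cannot be set against 1 of 20. Among genes these were Fxyd6 at 463 CPM (27.4 to 92.1 in the other KO libraries), Tusc3 at 243 CPM (49.2 to 66.2), Bex3 at 446 CPM (36.2 to 95.0), Zcchc18 at 1350 CPM (56.5 to 206) and Bex1 at 139 CPM (4.86 to 15.5). Among marker sums these were astrocytes at 1135 CPM (401 to 516), neurons at 8051 CPM (264 to 1153) and erythrocytes at 336 CPM (45.7 to 70.8).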

How the results depend on the processing

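Tmem106b was lower in KO in all 21 alternatives (log2 difference −1.57 to −1.33) and kept its call in 6. It lost the call with RLE scaling (−1.43), limma-voom (−1.50), no covariates (−1.46), dissection alone as covariate (−1.46), the 7 libraries alone without covariates (−1.45) or with dissection (−1.46), Entire libraries alone (−1.43), the neuron covariate (−1.39) and the 3 marker covariates (−1.33), and in each of these 9 settings the count of lower genes was 0. With 1 library left out Tmem106b ranged from −1.57 to −1.44 and the count of lower genes from 0 to 3. DESeq2 called 476 genes higher and 102 lower. The cause was not tested. Of 4944 further values over the alternatives, 4680 kept their side of the threshold or moved by less than the spread, 168 moved, 71 passed the threshold where the main analysis had not, and 25 lost it. No value past the threshold changed sign, but 175 values had another sign than in the main analysis, none of them past it in either, such as Grn (−0.34, and 0.06 without KO replicate 2). No paired analysis was possible because replicate numbers only name the libraries and pair none across groups. With 4 against 3 libraries, of which KO replicate 2 differs in makeup, differences that missed the threshold are not shown to be absent.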
